A study of Rattus norvegicus with 6 samples.

Results

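Ser tRNA fragments are the small RNA reads that come from the nuclear tRNAs which carry serine to the ribosome, here those with the anticodons SerAGA, SerCGA, SerTGA and SerGCT. A read sequence was taken where every alignment to a mature tRNA went to nuclear references with these anticodons. This gave 1305 of 59593 read sequences and 19153 of 1593112 reads aligned to mature tRNA, or 1.20%. They came from 29 of 403 tRNA references, of which 10 are named SerAGA, 3 SerCGA, 4 SerTGA and 12 SerGCT. A further 28 sequences with 38 reads matched both Ser and other tRNAs and were left out. No mature alignment went to a mitochondrial Ser reference, and mitochondrial Ser tRNA is not analysed here.

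The cells were AR42J, an established rat line derived from a tumour of the exocrine pancreas and used as a model of the acinar cell. All 6 small RNA libraries came from this line, grown in culture with no genetic change named. In 3 libraries the cells were untreated, and in 3 they had received 200 µM sodium taurocholate, a bile salt that injures acinar cells, for 30 min. The comparison asks which small RNAs differ after this short exposure. The labels do not say whether replicates were separate cultures, so every p-value measures the spread between these libraries alone, which may be technical.

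Each transfer RNA ends in CCA, which an enzyme adds to its 3′ end and to which the amino acid is joined. Cells cut tRNAs into fragments: long pieces split at the anticodon loop (tRNA-derived stress-induced RNAs, or tiRNAs), short 5′ pieces cut near the D arm, and short 3′ pieces that begin in the T arm and keep the CCA. Ser and Leu tRNAs, with selenocysteine tRNA, differ from the other nuclear tRNAs in having a long variable arm between the anticodon stem and the T arm, and the seryl-tRNA synthetase recognises its substrates through that arm rather than through the anticodon.

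The deposited reads spelled 15 of the Ser references from end to end, in 9 distinct sequences, all of 85 nt with the CCA. In each of the 15 the anticodon lies at positions 34 to 36, the variable arm at 44 to 57 (14 nt) and the T arm at 58 to 74, counted from 1 at the 5′ end. The following 4 are shown because the differences between the anticodons decide which reads can be told apart. Capitals mark the anticodon and, further right, the variable arm.
chr5.trna455-SerAGA: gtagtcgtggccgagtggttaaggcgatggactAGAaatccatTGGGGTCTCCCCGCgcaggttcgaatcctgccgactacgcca
chr11.trna2516-SerTGA: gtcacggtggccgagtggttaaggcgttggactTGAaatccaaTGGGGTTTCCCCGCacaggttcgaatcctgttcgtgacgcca
chr7.trna9348-SerCGA: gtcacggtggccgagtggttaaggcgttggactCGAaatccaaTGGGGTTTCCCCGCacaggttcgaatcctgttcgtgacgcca
chr10.trna11261-SerGCT: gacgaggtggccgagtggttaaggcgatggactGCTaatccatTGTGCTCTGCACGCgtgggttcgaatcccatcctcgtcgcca

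The files name a reference by its chromosome and a tRNA number, and its start and end in the genome were not used here. The SerAGA sequence was spelled by 3 references and the SerGCT sequence by 4. The SerTGA and SerCGA references shown differ in the anticodon alone, and their fragments cannot be separated unless a read crosses it. Among the 15 references there are 6 distinct last 18 bases, 5 distinct first 18 bases and 5 distinct variable arms. A Ser read aligned to a median of 7 references, and 993 reads (5.18%) aligned to 1. Reads that matched several anticodons equally therefore form groups of their own.

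In each of the 5 largest anticodon groups the leading read was a 3′ fragment. The most abundant sequences are given below with the CCA end in capitals only where the read reaches it as the reference spells it. The first is the most abundant Ser sequence of all, the next is its shorter form, and the third to sixth lead the other groups.
SerAGA/SerTGA, positions 68 to 85: atcctgccgactacgCCA
SerAGA/SerTGA, positions 69 to 85: tcctgccgactacgCCA
SerCGA, positions 68 to 85: atcctgctcacagcgCCA
SerCGA/SerTGA, positions 68 to 85: atcctgttcgtgacgCCA
SerTGA, positions 68 to 85: accctgctcgctgcgCCA
SerGCT, positions 64 to 85: tcgaatcccatcctcgtcgCCA

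The first of these had 5190 reads and the second 1262. The sequences leading SerCGA, SerCGA/SerTGA and SerTGA had between 132 and 270 reads. In SerGCT the 22-nt sequence had 321 reads, ahead of 299 for the 18-nt sequence atcccatcctcgtcgCCA. It was the sole group led by a 22-nt read.

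Reads aligned to tRNA numbered 193750 to 348451 per library, and Ser reads 2227 to 3917. Reads of 51 nt, which show no 3′ end, made up 1.19% to 12.6% of all tRNA reads and numbered 9 among Ser reads. Taurocholate replicate 1, and less so untreated replicate 1, stood apart by reads ending in a mismatched G, in Ser and in other tRNAs alike, as given with the read ends. Of the pancreatic markers, miR-148a made up 284614 to 422852 reads per 1000000 miRNA reads and miR-7a 41369 to 59949, whereas the acinar miR-216a, miR-216b and miR-217 did not pass 1.10. The stromal miR-143 and miR-145 summed to 10112 to 14103 on that scale, and the sum of the blood and immune miRNAs was 2065 to 3859 in untreated and 1946 to 3649 in treated libraries. Their part in the results was not tested. Fewer cells and less RNA per cell cannot be told apart in such libraries.

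The total of Ser reads overlapped between untreated and treated libraries. Ser reads made up 1.22%, 1.18% and 1.49% of mature tRNA reads in untreated replicates 1 to 3, and 1.08%, 0.965% and 1.34% in taurocholate replicates 1 to 3. The groups overlapped, with replicate 3 the highest in each. The means were 1.30% ± 0.17 (SD, n = 3) and 1.13% ± 0.19 (SD, n = 3), a difference of -0.168 percentage points with p = 0.40 in a two-sided exact permutation test. Without untreated replicate 3 the difference was -0.072 percentage points, and without taurocholate replicate 2 it was -0.0866. The smallest p that 3 against 3 libraries allow is 0.1.

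Ser reads fell into 8 anticodon groups of very unequal size. Reads that matched SerAGA and SerTGA equally held 73.3% of them (14044 reads), SerGCT 15.1% (2891), SerCGA 3.86% (739), SerTGA 3.75% (719), and SerCGA/SerTGA 3.36% (643). SerAGA by itself had 83 reads, since a read tells SerAGA from SerTGA only where their sequences differ. The SerTGA reference printed above differs from SerAGA at both ends. The reads shared with SerAGA therefore come from SerTGA references that are not among the 15 spelled from end to end. The remaining groups, SerAGA/SerGCT/SerTGA and SerAGA/SerCGA/SerTGA, had 21 and 13 reads and did not pass the filter on low counts.

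No anticodon group was called as changed with taurocholate. Of the 6 tested, 2 were higher and 4 lower in treated cells, and none was called by edgeR's quasi-likelihood test at an adjusted p under 0.05, as among all tRNA groups tested (0% called). With library totals in place of TMM scaling 1 was higher and 5 were lower, with none called. None reached an unadjusted p under 0.05 in that test. None of the 6 separated the libraries of the groups completely, where 15.6% of all groups did. The median log2 fold change was -0.09 for the 6, beside -0.06 for all groups.

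The large groups were highest in replicate 3 of both conditions. SerAGA/SerTGA had 8666, 8222 and 10121 reads per 1000000 tRNA reads (CPM) in untreated and 7351, 6992 and 9481 in treated libraries. Untreated replicate 3 was the highest and taurocholate replicate 2 the lowest, and the groups overlapped. The log2 fold change, treated over untreated, was -0.07 (SE 0.15, edgeR adjusted p = 0.911).

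SerGCT had 1585, 1659 and 2386 CPM in untreated and 1623, 1263 and 1916 CPM in treated libraries. Again untreated replicate 3 was the highest and taurocholate replicate 2 the lowest. The log2 fold change was -0.11 (SE 0.21, edgeR adjusted p = 0.874). The smaller groups gave log2 fold changes of 0.20 (SE 0.26) for SerCGA, -0.32 (SE 0.27) for SerTGA, 0.06 (SE 0.18) for SerCGA/SerTGA and -0.17 (SE 0.46) for SerAGA, and edgeR's adjusted p was between 0.696 and 0.9302. The SerTGA value was -0.06 without taurocholate replicate 2. These counts are shown by library in the plot of anticodon groups.

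**Figure D1:**
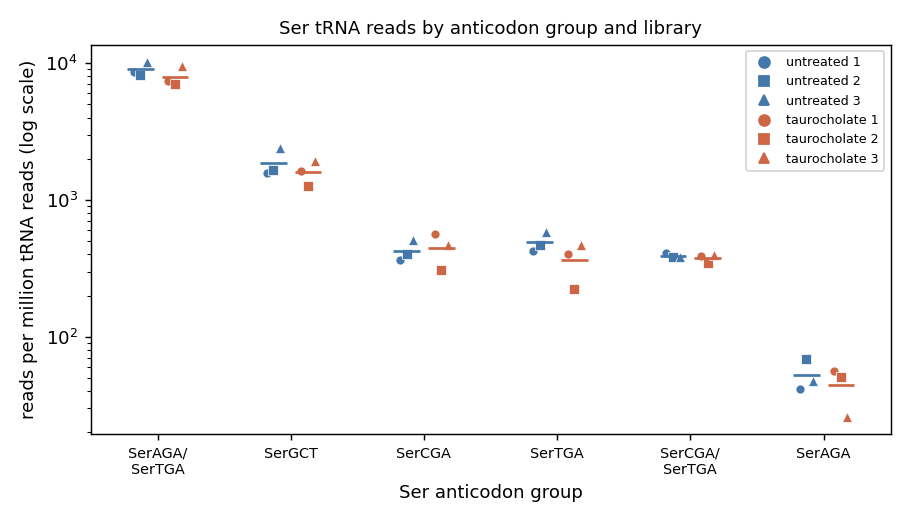
Reads per 1000000 tRNA reads (log axis) for the 6 tested Ser anticodon groups. Each point is a library, blue for untreated and orange for taurocholate, and the bars are group means. Treated and untreated libraries overlap in every group, and SerAGA/SerTGA stands at 6992 to 10121 CPM against 1263 to 2386 for SerGCT.

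Ser reads were short and lay at the ends of the tRNA. Reads of 16 to 18 nt made up 85.4%, with 9780 of 18 nt, 4251 of 17 nt and 2325 of 16 nt. Reads shorter than 16 nt do not occur in the files, so the lengths are cut off from below. A second, smaller length was 22 nt, with 1230 reads. Only 279 reads (1.46%) had 31 nt or more.

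Fragments were classed by place with a tolerance of 3 nt. A tRF-3 reaches the mature 3′ end and has at most 30 nt, a tiRNA-3 reaches it and has at least 31 nt, and tRF-5 and tiRNA-5 are the same at the 5′ end. An i-tRF touches neither end. Ser reads comprised 15618 tRF-3 (81.5%), 2835 tRF-5 (14.8%), 564 i-tRF (2.94%), 115 tiRNA-3 (0.600%) and 21 tiRNA-5 (0.110%).

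The class shares overlapped between untreated and treated libraries. The tRF-3 took 79.1%, 82.3% and 78.1% of Ser reads in untreated and 88.7%, 79.0% and 80.2% in treated libraries. Taurocholate replicate 1 was the highest and the other 5 libraries lay between 78.1% and 82.3% (exact permutation p = 0.60). The tRF-5 took 17.6%, 14.2% and 16.99% in untreated and 8.12%, 17.3% and 16.5% in treated libraries (exact permutation p = 0.60). Taurocholate replicate 1 was the lowest, and without it the tRF-5 difference was 0.635 percentage points and the tRF-3 difference -0.174.

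The shares of i-tRF were 2.83%, 3.02% and 3.44% in untreated and 2.73%, 3.28% and 2.53% in treated libraries (exact permutation p = 0.40). The tiRNA-3 shares were 0.269%, 0.537% and 1.39% against 0.483%, 0.256% and 0.511%, with untreated replicate 3 the highest (exact permutation p = 0.40). The 21 tiRNA-5 reads allow no comparison by library of any precision. Ser reads of 26 to 40 nt from the 5′ end numbered 0 in taurocholate replicate 1 and 1 to 6 in the others. Their mean length was 32.3 nt ± 3.4 (SD, n = 3) in untreated and 34.5 nt ± 0.7 (SD, n = 2) in treated libraries, with p = 0.50 in an exact permutation test. The difference of 2.22 nt was between 0.75 and 4.08 nt with each library left out in turn. Over Ser reads of 16 to 50 nt from the 5′ end, nearly all of them tRF-5, the means were 18.3 and 18.7 nt, a difference of 0.425 nt without overlap (exact permutation p = 0.1).

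Ser tRNAs gave almost no long 5′ fragments, unlike the nuclear tRNAs as a whole. Over the 6 libraries tiRNA-5 made up 0.117% ± 0.085 (SD, n = 6) of Ser reads and 16.9% ± 3.9 (SD, n = 6) of the reads of all nuclear tRNAs other than Ser. In each of the 6 libraries Ser was the lower. An exact sign-flip test over libraries gave p = 0.03125, the smallest that 6 pairs allow, and an adjusted p of 0.0781 over the 10 comparisons of this kind, so it does not pass after adjustment. The share in Leu tRNAs, which also have a long variable arm, was 0.146% ± 0.055 (SD, n = 6), and the difference between Ser and Leu was -0.029 percentage points (exact p = 0.562, adjusted p = 0.562).

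Of the other 4 classes, tRF-3 and i-tRF stood apart from the remaining tRNAs in all 6 libraries without passing after adjustment, and tRF-5 and tiRNA-3 did not stand apart in all 6. The tRF-3 share was 81.2% ± 3.9 (SD, n = 6) for Ser, 49.2% ± 2.0 (SD, n = 6) for all others and 84.9% ± 1.7 (SD, n = 6) for Leu. Ser was above the others in 6 of 6 libraries (exact p = 0.03125, adjusted p = 0.0781) and below Leu in 5 of 6 (exact p = 0.0625, adjusted p = 0.125). The i-tRF share was 2.97% in Ser, 19.6% in all others (lower in 6 of 6, exact p = 0.03125, adjusted p = 0.0781) and 3.43% in Leu (exact p = 0.281). An alignment to a reference whose 3′ end was not found cannot count as tRF-3 or tiRNA-3. Unless it starts at the 5′ end, it counts as i-tRF. This applies to 83 of 403 references, and its part in the tRF-3, tiRNA-3 and i-tRF shares was not tested.

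The tRF-5 share was 15.1% ± 3.6 (SD, n = 6) in Ser and 13.6% ± 2.7 (SD, n = 6) in all others, higher in 4 of 6 libraries (exact p = 0.281, adjusted p = 0.352).

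Among the long 3′ fragments, Ser lay above Leu in every library, again without passing after adjustment. The tiRNA-3 share was 0.575% ± 0.42 (SD, n = 6) in Ser and 0.048% ± 0.049 (SD, n = 6) in Leu, higher in Ser in 6 of 6 libraries (exact p = 0.03125, adjusted p = 0.0781). It rests on 115 Ser reads. In all nuclear tRNAs other than Ser the tiRNA-3 share was 0.695% (exact p = 0.344, adjusted p = 0.382). Selenocysteine tRNA had 313 reads, too few for such shares, and its 3′ end was not found.

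**Figure D2:**
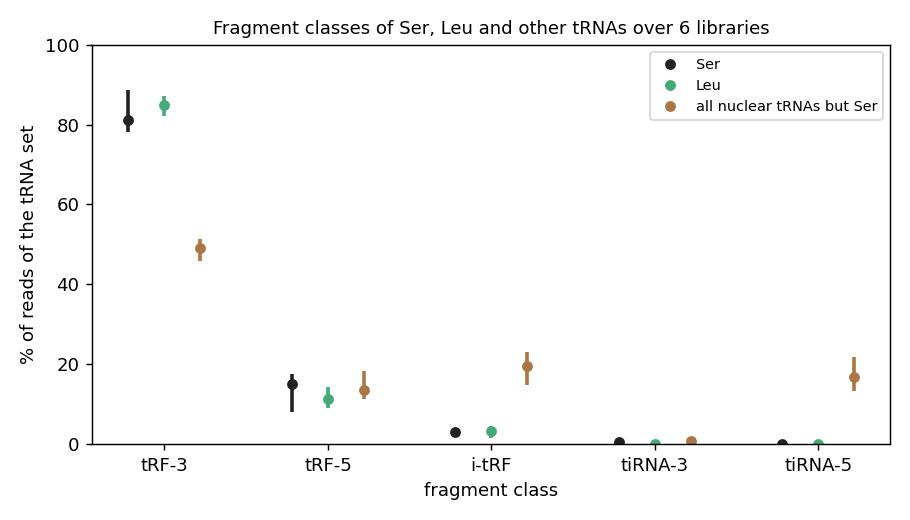
Share of reads in each fragment class (percent) for Ser, Leu and all nuclear tRNAs other than Ser, which include Leu. Points are means over 6 libraries and lines run from the lowest to the highest library. Ser and Leu lie close together in tRF-3 (81.2% and 84.9%) and near 0 in tiRNA-5, where all nuclear tRNAs other than Ser have 16.9%.

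No Ser fragment feature, meaning a class of 1 anticodon group, was called as changed with taurocholate. Of 31 features 9 passed the filter on low counts, and of these 4 were higher, 5 lower and none was called (edgeR, adjusted p under 0.05), as among all 230 tRNA features (0% called). With library totals in place of TMM scaling 1 of the 9 was higher and 8 were lower, with none called. None had an unadjusted edgeR p under 0.05. In a trial on simulated counts the test found 49% of 2-fold and 92% of 4-fold changes among features. None of the 9 separated the groups completely, where 17.4% of all features did. The 22 features not tested held 412 reads, at most 45 each. The median log2 fold change was -0.04 for the 9 Ser features and 0.01 for all 230.

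The tRF-3 of the largest group held most Ser reads. The tRF-3 of SerAGA/SerTGA had 7148, 7143 and 8441 CPM in untreated and 6875, 5973 and 7957 CPM in treated libraries. The groups overlapped, and the log2 fold change was 0.02 (SE 0.15, edgeR adjusted p = 0.980).

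The tRF-5 of the same group had 1502, 1050 and 1628 CPM in untreated and 458, 1004 and 1485 CPM in treated libraries. Taurocholate replicate 1 was lower than all others and the remaining libraries overlapped. The log2 fold change was -0.39 (SE 0.34, edgeR adjusted p = 0.646), and -0.06 without taurocholate replicate 1.

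The tRF-3 of SerGCT had 883, 1013 and 1280 CPM in untreated and 1108, 533 and 1139 CPM in treated libraries, with taurocholate replicate 2 the lowest (log2 fold change -0.04, SE 0.31, edgeR adjusted p = 0.980). The tRF-5 of SerGCT, with a mean below 500 CPM, gave 0.02 (SE 0.21).

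The smallest p of the 9 belonged to the i-tRF of SerGCT. Of these 379 internal reads 355 overlapped the variable arm and 220 covered all of it. It had 253, 215 and 366 CPM in untreated and 166, 188 and 219 CPM in treated libraries. Taurocholate replicate 3 lay above untreated replicate 2, and the log2 fold change of -0.39 (SE 0.20) had an unadjusted p of 0.093 and an edgeR adjusted p of 0.461. Without untreated replicate 3 it was -0.20. The tRF-3 of SerCGA, SerTGA and SerCGA/SerTGA gave 0.23 (SE 0.32), -0.24 (SE 0.29) and 0.14 (SE 0.19), and the tRF-5 of SerTGA gave -0.53 (SE 0.34).

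Of 13 tested features of Leu tRNAs 6 were higher, 7 lower and none was called (median log2 fold change -0.07), with 2 at an unadjusted edgeR p under 0.05. Both tested features of selenocysteine tRNA were lower, 1 of them at an unadjusted p under 0.05, and neither was called.

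The 3′ fragments had few starts. Reads from position 68 to 85 numbered 8538, which is 54.7% of tRF-3 and between 39.1% and 52.6% of all Ser reads of a library. Reads from 69 to 85 numbered 2112, from 68 to 84 1969, from 64 to 85 1085 and from 70 to 85 888. All these starts lie in the T arm, so the reads hold its 3′ side and the 3′ strand of the acceptor stem. Those that end at 84 stop before the final A.

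The 5′ fragments ended in the D arm region. Of 2835 tRF-5 reads, 1155 (40.7%) ran from 1 to 18 and 775 (27.3%) from 1 to 16. The main sequences were the following, of which the first leads at 18 nt, the second is its 16-nt form and the third is the 18-nt form of SerGCT; all 3 match the reference throughout, and nothing is marked in capitals.
SerAGA/SerTGA, positions 1 to 18: gtagtcgtggccgagtgg
SerAGA/SerTGA, positions 1 to 16: gtagtcgtggccgagt
SerGCT, positions 1 to 18: gacgaggtggccgagtgg

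These ends set Ser apart from the other nuclear tRNAs. A last base at 18 was found in 45.0% ± 8.0 (SD, n = 6) of Ser tRF-5 and 0.474% ± 0.201 (SD, n = 6) of the tRF-5 of all nuclear tRNAs other than Ser. A last base at 16 was found in 26.1% ± 9.3 (SD, n = 6) against 4.61% ± 1.48 (SD, n = 6). Ser was higher in 6 of 6 libraries for both (exact sign-flip p = 0.03125, adjusted p = 0.0417 over 8 ends). These 8 ends were chosen after the Ser reads had been seen, as main ends of Ser. That choice favours a higher share in Ser than in a pool of many tRNAs. The ends of Leu alone were not compared.

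At the 3′ side the 18-nt start was more common and the 17-nt start less common in Ser. Reads whose first base lies 18 nt before the end of the CCA (position 68) made up 67.4% ± 0.85 (SD, n = 6) of Ser tRF-3 and 48.6% ± 1.2 (SD, n = 6) in the others. For 17 nt (position 69) the values were 17.3% ± 1.3 (SD, n = 6) and 34.2% ± 1.7 (SD, n = 6). All 6 libraries showed each direction (exact sign-flip p = 0.03125, adjusted p = 0.0417). The 22-nt start (position 64) made up 8.54% and 9.28%, lower in Ser in 5 of 6 libraries (exact p = 0.0625, adjusted p = 0.0625).

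The anticodon groups differed strongly in the start at 64. It took 40.1% ± 5.6 (SD, n = 6) of the tRF-3 of SerGCT and 30.1% ± 4.3 (SD, n = 6) of SerCGA/SerTGA, but 5.70% of SerCGA, 3.80% ± 0.28 (SD, n = 6) of SerAGA/SerTGA and 2.59% of SerTGA. SerGCT was above SerAGA/SerTGA by 36.3 percentage points and SerCGA/SerTGA was above it by 26.3. Each held in 6 of 6 libraries (exact sign-flip p = 0.03125, the smallest possible, adjusted p = 0.0446 over 20 comparisons). The 20 are the pairs of groups at the starts 64 and 68, both shares of the same tRF-3 reads. These starts were chosen after the Ser reads had been seen. SerGCT and SerCGA/SerTGA did not pass (difference 10.1 percentage points, adjusted p = 0.0781), nor did SerAGA/SerTGA, SerCGA and SerTGA among themselves (adjusted p = 0.104 to 0.250).

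The 22-nt sequences leading this start in SerGCT and SerCGA/SerTGA are shown beside that of SerAGA/SerTGA, with the part before position 68 in lower case and the 18 bases from position 68 in capitals.
SerGCT, positions 64 to 85: tcgaATCCCATCCTCGTCGCCA
SerCGA/SerTGA, positions 64 to 85: tcgaATCCTGTTCGTGACGCCA
SerAGA/SerTGA, positions 64 to 85: tcgaATCCTGCCGACTACGCCA

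The first had 321 reads, the second 106 and the third, from a group with many more reads, 251. All 3 open with the same 4 bases, which belong to the T loop.

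**Figure D3:**
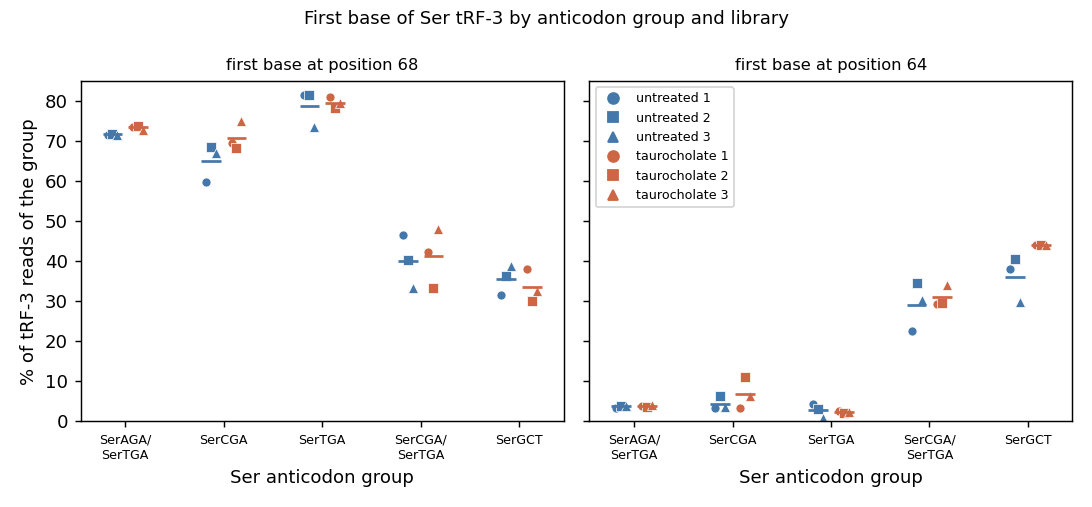
Percent of the tRF-3 reads of each Ser anticodon group whose first base is at position 68 (left) or 64 (right). Points are libraries, blue untreated and orange taurocholate, and bars are group means. SerGCT and SerCGA/SerTGA start at 64 in 40.1% and 30.1% of reads, and the other groups in 5.70% or less.

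SerGCT also held most of the Ser reads from the middle of the tRNA. Of the 294 Ser reads that covered the whole anticodon, 226 (76.9%) were SerGCT, although it had 15.1% of Ser reads. Such reads made up 8.09% ± 1.65 (SD, n = 6) of SerGCT and 0.429% ± 0.161 (SD, n = 6) of all other Ser reads together. Of the 360 reads that covered the whole variable arm, 254 (70.6%) were SerGCT, which is 9.06% ± 2.48 (SD, n = 6) of its reads against 0.626% ± 0.182 (SD, n = 6). SerGCT was above the other Ser reads together in 6 of 6 libraries in both (exact sign-flip p = 0.03125, adjusted p = 0.03125). Of those 16262 other reads 14044 were SerAGA/SerTGA, where a read that crosses the anticodon leaves the group. Of SerCGA reads 4.74% covered the anticodon, and 12.8% in taurocholate replicate 2, against 9.94% of SerGCT there. The whole variable arm was covered by 3.42% of SerCGA/SerTGA and 2.92% of SerTGA. Of the 83 SerAGA reads 28.9% covered the anticodon and 21.7% the variable arm.

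The share of Ser reads that covered the whole variable arm was 1.66%, 1.74% and 2.79% in untreated and 1.73%, 1.92% and 1.51% in treated libraries. Untreated replicate 3 was the highest and the groups overlapped (exact permutation p = 0.60). The main internal read of SerGCT ran from position 27 to 63 and had 13 reads. It is shown because it crosses the anticodon (in capitals in the reference above) and the variable arm. It matched 2 SerGCT references, whose variable arm differs in a base from that of the SerGCT reference printed above.
SerGCT, positions 27 to 63: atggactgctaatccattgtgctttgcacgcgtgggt

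Within SerGCT the classes were tRF-3 58.0%, tRF-5 26.98%, i-tRF 13.1%, tiRNA-3 1.45% and tiRNA-5 0.415%. Within SerAGA/SerTGA they were tRF-3 86.2% and tRF-5 13.5%, with i-tRF at 0.0783%. The i-tRF and tiRNA-3 of SerAGA and SerTGA are undercounted in the shared group. A read that crosses the anticodon, or another base where they differ, goes to its own anticodon. Of the 83 reads of SerAGA alone, 24 covered the whole anticodon and 35 overlapped the variable arm. Reads of any group that aligned to SerAGA across the first anticodon base numbered 24, all of SerAGA alone and none shared with SerTGA. That base, at position 34, is known in SerAGA tRNA to be changed from adenosine to inosine and then read as G. None of the 24 had a mismatch there, and a count of 0 of 24 allows a share of up to 12.5% of such reads, for counting error only. A read with a further mismatch would not be in the files.

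**Figure D4:**
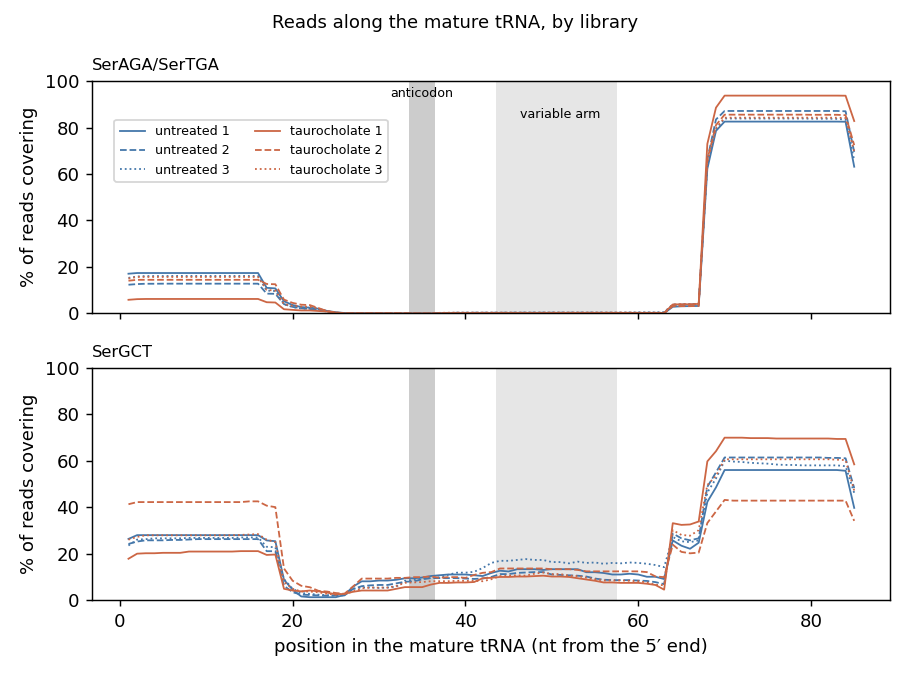
Percent of reads that cover each position of the mature tRNA, for SerAGA/SerTGA (top) and SerGCT (bottom), with 1 line per library. Grey bands mark the anticodon (34 to 36) and the variable arm (44 to 57). SerAGA/SerTGA reads lie almost wholly at the ends, but a read that crosses the anticodon leaves this shared group for SerAGA or SerTGA alone. SerGCT reads also cover the middle, with 9.06% spanning the variable arm.

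Within the classes, some ends separated the untreated from the treated libraries, but 3 against 3 libraries cannot reach a p under 0.1. In untreated libraries 31.3%, 31.6% and 34.2% of Ser tRF-5 ended at position 16, and in treated libraries 19.2%, 10.4% and 29.6%. All 3 treated libraries were below all 3 untreated, and taurocholate replicate 3 was close to them. The difference of -12.6 percentage points had an exact permutation p of 0.1, the smallest possible, and an adjusted p of 0.2 over 4 ends. Taken by group the end at 16 overlapped, at 36.47% ± 2.7 and 23.6% ± 11.6 for SerAGA/SerTGA and at 15.02% ± 5.5 and 8.14% ± 1.9 for SerGCT (SD, n = 3 each, exact permutation p = 0.2 each).

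An end at position 18 showed the opposite. Ends at 16 and 18 are shares of the same tRF-5 reads, so they are not independent. By CPM, the 18-nt sequence had a log2 fold change of -0.0018 in SerAGA/SerTGA and 0.45 in SerGCT. The 16-nt form of SerAGA/SerTGA had -0.98. It made up 37.4%, 40.4% and 38.8% of tRF-5 in untreated and 57.0%, 52.6% and 43.7% in treated libraries. All 3 treated libraries were higher, by 12.2 percentage points on average (exact permutation p = 0.1, adjusted p = 0.2). Within SerAGA/SerTGA the end at 18 was 33.9% ± 1.7 in untreated and 43.2% ± 5.3 in treated libraries (SD, n = 3 each). Within SerGCT it was 57.1% ± 3.9 and 67.2% ± 6.6 (SD, n = 3 each), and neither overlapped. In the other nuclear tRNAs the end at 18 was rare and the groups overlapped, at 0.562% ± 0.255 and 0.386% ± 0.112 (SD, n = 3 each).

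The starts of tRF-3 differed less. A start at 68 made up 66.6%, 66.9% and 66.6% of Ser tRF-3 in untreated and 68.1%, 68.6% and 67.8% in treated libraries. A start at 69 made up 18.7%, 18.4% and 18.1% against 15.9%, 16.99% and 15.8%. Neither overlapped between the groups, and both had an exact permutation p of 0.1 and an adjusted p of 0.2 over 4 starts.

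The equivalent 17-nt start was also lower without overlap in the other nuclear tRNAs, at 35.6% ± 0.63 in untreated and 32.8% ± 0.81 in treated libraries (SD, n = 3 each). For SerGCT the start at 64 made up 38.0%, 40.5% and 29.9% of tRF-3 in untreated libraries, and 44.1% ± 0.07 (SD, n = 3) in treated libraries, all of them higher (exact permutation p = 0.1). Over all Ser it overlapped, at 8.06% and 9.02% (exact permutation p = 0.2), and the 22-nt start of the other nuclear tRNAs was 8.33% and 10.2% without overlap (exact permutation p = 0.1). Of the 8 ends compared for all Ser, 4 did not overlap between the groups, and of the same 8 in the other nuclear tRNAs 2 did not. They were chosen after the data had been seen.

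The last base of the 3′ fragments varied between libraries. Of Ser tRF-3, 54.3%, 69.01% and 67.1% ended in the complete CCA in untreated and 49.6%, 73.7% and 71.4% in treated libraries. Reads with G in place of the final A made up 11.4%, 2.33% and 2.93% in untreated and 33.8%, 2.21% and 2.45% in treated libraries. Replicate 1 of each group was the higher, and taurocholate replicate 1 by far the highest. Other nuclear tRF-3 showed a mismatched last G at 11.6%, 2.29% and 2.85% against 33.1%, 1.96% and 2.53%, so it was not limited to Ser.

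Reads whose last base was a mismatched T or A were less frequent in all 3 treated libraries. With T in place of the final A the shares were 6.76%, 4.57% and 6.26% in untreated and 2.02%, 4.42% and 4.14% in treated libraries. With T in place of the second C, at position 84, they were 10.3%, 6.47% and 7.57% against 2.82%, 5.50% and 5.86%. With A in that place they were 2.95%, 2.39% and 2.46% against 1.22%, 1.29% and 1.78%. None of the 3 overlapped between the groups, each with an exact permutation p of 0.1 and an adjusted p of 0.225 over 9 kinds of 3′ end.

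In the other nuclear tRF-3 a mismatched last T was 17.8%, 11.5% and 13.3% in untreated and 6.14%, 11.6% and 11.01% in treated libraries, which overlap. A mismatched last A was 2.65%, 2.62% and 2.65% against 1.66%, 2.39% and 2.41%, lower in all 3 treated libraries as in Ser (exact permutation p = 0.1). Since taurocholate replicate 1 was filled with reads ending in G, the shares were also taken without such reads, an alternative added after the data had been seen. The 3 kinds of end stayed lower in all treated libraries, with differences of -2.33, -3.42 and -1.11 percentage points (exact permutation p = 0.1 each). The complete CCA was then higher in all 3, at 75.1% ± 1.7 against 67.3% ± 4.8 (SD, n = 3 each).

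**Figure D5:**
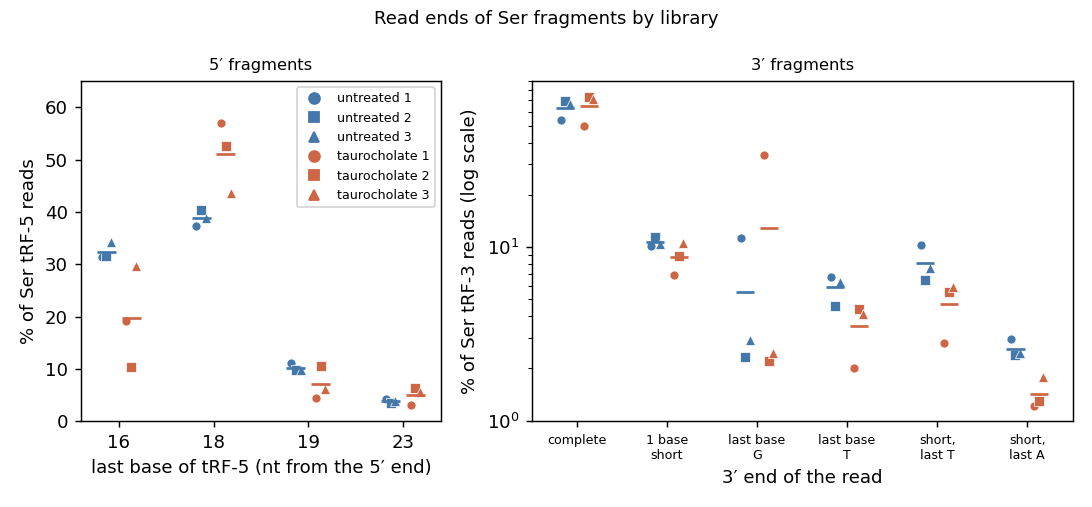
Left, percent of Ser tRF-5 reads by last base (16, 18, 19 or 23), and right, percent of Ser tRF-3 reads by 3′ end on a log axis (complete CCA, 1 base short, or a mismatched last base). Points are libraries and bars are group means. Ends at 16 are lower and ends at 18 higher in all 3 treated libraries, and taurocholate replicate 1 stands out with 33.8% of reads ending in G. The ends at 16 and 18 are shares of the same tRF-5 reads.

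Single read sequences were tested as well. Of 1305 Ser sequences 38 passed the filter, holding 75.8% of Ser reads, with 15 higher and 23 lower in treated cells (median log2 fold change -0.11, beside 0.03 for all 2233 sequences tested). None was called by edgeR at an adjusted p under 0.05, as among all 2233 (0% called), and the smallest adjusted p was 0.302. In the trial on simulated counts this test found 1.2% of 2-fold and 39.4% of 4-fold changes among sequences. Most changes of these sizes would be missed, so the absence of calls does not show an absence of change. An unadjusted p under 0.05 was found for 5 of the 38 (13.2%), beside 14.1% of all sequences. Libraries did not overlap for 6 of the 38 (15.8%), beside 17.4% of all sequences.

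The 5 sequences with an unadjusted p under 0.05 were all lower in treated cells, and all 5 belong to the 13 tested sequences whose last base is a mismatch. They are printed with that base in capitals. The tokens give the reference base, the position in the mature tRNA and the read's base.
C84T, positions 69 to 84: tcctgccgactacgcT
C84A, positions 68 to 84: atcctgccgactacgcA
A85T, positions 68 to 85: atcctgccgactacgccT
A85T, positions 69 to 85: tcctgccgactacgccT
C84T, positions 68 to 84: atcctgccgactacgcT

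The first had 196, 97.6 and 161 CPM in untreated and 26.6, 58.8 and 75.1 CPM in treated libraries. All treated libraries were lower, with a log2 fold change of -1.35 (SE 0.37, edgeR adjusted p = 0.302). The others gave log2 fold changes of -0.84 (SE 0.26), -0.70 (SE 0.26), -0.95 (SE 0.35) and -0.71 (SE 0.29), with adjusted p between 0.302 and 0.342. The last of them overlapped between the groups, by untreated replicate 2 and taurocholate replicate 3.

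For the sequences with a complete CCA the groups overlapped. The 18-nt atcctgccgactacgCCA had 2565, 3237 and 3779 CPM in untreated and 2297, 2902 and 3851 CPM in treated libraries, a log2 fold change of 0.09 (SE 0.22, edgeR adjusted p = 0.8498). Its 17-nt form gave -0.05 (SE 0.20). The form that ends in G (A85G) had 594, 143.5 and 178 CPM in untreated and 1729, 106 and 147 CPM in treated libraries, a log2 fold change of 1.63 (SE 1.23, edgeR adjusted p = 0.551) that rests on taurocholate replicate 1 and was -1.22 without it.

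Among 5′ fragments the 16-nt gtagtcgtggccgagt had 387, 247 and 496 CPM in untreated and 67.99, 110 and 366 CPM in treated libraries. Taurocholate replicate 3 was above untreated replicate 2, and the log2 fold change was -0.98 (SE 0.52, edgeR adjusted p = 0.434). The 18-nt form gave -0.0018 (SE 0.29), and the 18-nt form of SerGCT gave 0.45 (SE 0.22, adjusted p = 0.389). The 3 sequences with the smallest p among those higher in treated cells were this one, its variant with G18A at 0.91 (SE 0.44) and the A85C form of the 18-nt 3′ fragment at 0.40 (SE 0.25), none with an adjusted p under 0.389.

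Mismatches were mostly at the last base of a read, with 4882 Ser reads (25.5%). Mismatches elsewhere were found in 1486 reads (7.76%), led by C84T in 116 and C76T in 112, where C84T is counted in reads that go on to position 85. No such token reached 1% of the Ser reads of any library. The most frequent one inside the variable arm was C50T, with 50 reads. Position 50 is C in some Ser references, such as the SerAGA shown, and T in others, such as the SerTGA shown. The source of these reads was not tested.

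Of the 48 other tRNA groups with a mean of at least 500 CPM, those whose log2 CPM over the 6 libraries was most like the Ser total were LeuTAA (Pearson r 0.948), GluCTC/GluTTC (0.938) and AsnGTT (0.932). These values describe 6 libraries that share their totals.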

How the data were processed

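Small RNA was sequenced from 6 AR42J libraries, 3 per group, and the labels gave each library's group and number. Per the labels' protocols, RNA was deacylated, its ends were repaired, blocking methyl groups were taken off, and the libraries were size-selected. FastQC, cutadapt and Novoalign 2.07.11 were used, per the submitters' processing notes; for the genome build and other versions the sources used here give nothing. The authors deposited counts, that is, a line per alignment of a distinct sequence with its read number, per the file headers. The aligned reads held at most 1 mismatch and were 16 to 51 nt long.

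A read entered once however many references it matched. The mature 3′ end was placed at the final CCA that reads without mismatch reached at position 60 or later, found for 320 of 403 references. CPM are per 1000000 tRNA reads, without scaling factors. Tests over all tRNA features, groups and sequences used edgeR 4.0.16 in R 4.3.3 (quasi-likelihood test, TMM scaling, filterByExpr, group as the sole term, Benjamini-Hochberg adjustment, threshold 0.05), after a trial on simulated data. The trial recovered 49% of 2-fold and 92% of 4-fold changes for features, 66% and 94% for groups, and 1.2% and 39.4% for sequences. SEs were derived from the F statistic. For shares, two-sided exact permutation tests compared the groups, and Ser was compared with other tRNAs by exact sign-flip tests over libraries.

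All Ser groups and features were described, with values per library from a mean of 500 CPM. Named sequences were the 2 most abundant of each class and the 3 of smallest p in each direction from 10 CPM; the further ones with an unadjusted p under 0.05, the A85G form, and the leading sequence of each group and start were chosen after their values were seen. Members and lists were chosen with earlier results of these data known. Alternatives were DESeq2 1.42.0, library totals, no filter, error-free reads, reads under 51 nt, exact ends, a replicate block and leaving out each library.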

Additional observations from a re-analysis of the deposited data

How the results depend on the processing

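No Ser feature or anticodon group was called under any alternative run: DESeq2, library totals, no filter, error-free reads, no reads of 51 nt, exact ends (features), the replicate block (0 called) and each library left out. The same held for sequences except with no filter, where 1 was called, the A85G form (log2 fold change 1.56, edgeR adjusted p = 0.0154), which rests on taurocholate replicate 1. Over the 230 tested features the replicate numbers showed no clear pairing (correlations of deviations of -0.201, 0.054 and 0.267 for replicates 1 to 3). The block moved no count of calls. Yet the mismatched last G was highest in replicate 1, and the Ser share in replicate 3, of both groups. With the block the log2 fold change of the A85G form was 0.52, beside 1.63 in the main fit. For the class shares, given in percentage points, the i-tRF difference became 0.0942 with error-free reads and the tiRNA-5 difference -0.00739 without reads of 51 nt. With ends required exactly at the mature ends, reads 1 base short count as i-tRF. The tRF-3 difference was then 7.90 (62.1% and 69.95%) and the i-tRF difference -5.52 (21.8% and 16.3%), both without overlap (exact permutation p = 0.1). With each library left out in turn the differences ranged from -0.174 to 4.65 (tRF-3), -3.93 to 0.635 (tRF-5), -0.548 to 0.0132 (tiRNA-3) and -0.0268 to 0.0777 (tiRNA-5).

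Library totals in place of TMM moved the median of all features by -0.14, of all groups by -0.12 and turned small changes: tRF-3 SerAGA/SerTGA to -0.13, tRF-5 SerGCT to -0.12, tRF-3 SerCGA/SerTGA to -0.0011, the SerCGA/SerTGA group to -0.0501 and the 18-nt 3′ sequence to -0.0824. Error-free reads gave -0.0273 for tRF-3 SerAGA/SerTGA. Without reads of 51 nt, tRF-3 SerGCT was 0.0287, the SerAGA/SerTGA group 0.0604 and the SerGCT group 0.0154. The 18-nt 5′ sequence was 9.8e-05 with DESeq2, 0.0136 with no filter and 6.1e-05 without reads of 51 nt.

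With each library left out the log2 fold changes that changed sign ranged as follows: tRF-3 SerAGA/SerTGA -0.0268 to 0.12, tRF-3 SerCGA -0.14 to 0.48, tRF-3 SerGCT -0.26 to 0.25, tRF-3 SerTGA -0.39 to 0.0290, and tRF-5 SerGCT -0.10 to 0.19. For groups they were SerAGA -0.44 to 0.15, SerAGA/SerTGA -0.16 to 0.0433, SerCGA -0.0146 to 0.41, and SerGCT -0.23 to 0.11. For sequences they were -0.0239 to 0.21 (18-nt 3′), -0.13 to 0.0755 (17-nt 3′), -1.22 to 2.57 (A85G form) and -0.11 to 0.20 (18-nt 5′). Leaving out taurocholate replicate 1 gave the ends of the tRF-3, tRF-5 and A85G ranges at -0.174, 0.635 and -1.22. The cause was not tested. With 2227 to 3917 Ser reads per library, tiRNAs and internal reads of most groups are too few for small differences to be detectable. For single sequences even 4-fold changes were mostly missed in the simulated trial.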
